A study of Canis lupus familiaris with 6 samples.

Results

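The genes described here are 9 inflammatory mediators in canine melanoma cells: IL33, PTGS2, IL6, CXCL8, CCL2, STC1, ACOD1, NFKBIA and TNFAIP3. They were found by gene symbol among 30951 rows holding 16036 different symbols. For 8 of the 9 a row carries the symbol, no row carries the symbol CCL2, which is not analysed here, and 7 passed the filter on low counts, IL6 being the one that did not. The members were chosen by name with measured values of these same 6 libraries in view, among them the KO-to-control differences of IL33, PTGS2 and STC1, and the comparisons were named together with them. Levels, folds and calls of members are therefore given as a description, with no p-value for a member.

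Gene expression was measured by RNA sequencing of total RNA in 6 libraries of the canine melanoma lines CMM12 and CMM2. Each line gave 2 libraries of podoplanin KO cells, numbered KO 1 and KO 2, and 1 control library with the wild type genotype. Podoplanin, encoded by PDPN, is a mucin-type membrane glycoprotein. The labels do not say whether a KO line is 1 clone, whether the controls went through the editing procedure or whether the libraries come from separate cultures, so the errors and p-values reflect no more than the spread among the deposited libraries, which may be technical. Whether equal KO numbers share anything across the lines is not stated either.

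Inflammatory signals such as cytokines and microbial products act through receptors on the transcription factor NF-kappaB, together with AP-1 and C/EBP factors, and switch on genes for chemokines, cytokines and the prostaglandin-making enzyme PTGS2. NFKBIA and TNFAIP3, themselves targets of NF-kappaB, feed back and damp the pathway. Tumour cells, melanoma cells among them, can use these genes to draw in leukocytes and blood vessels.

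The library totals were 9732927 to 11807835 expected counts, and 3 counts, the floor used per library for a gene at 0, correspond to 0.259 to 0.294 CPM (counts scaled to a common library size with TMM factors). PDPN had 15.2 and 9.98 CPM in CMM12 KO 1 and KO 2, against 87.7 CPM in the CMM12 control. In CMM2 it had 5.59 and 5.58 CPM in KO 1 and KO 2, against 20.2 CPM in the control, so both KO libraries of each line lay below their control. The KO pairs were not repeat deposits of 1 library, with a chi-square per degree of freedom between KO 1 and KO 2 of 31.8 in CMM12 and 47.5 in CMM2. Among genes at a mean of at least 10 CPM, the shares at least 2-fold apart set CMM2 KO 2 apart in its line. They were 6.06% against the control and 4.45% against KO 1, with 0.611% between KO 1 and control. The CMM12 control stood apart far less, with 5.12% and 5.19% against KO 1 and KO 2, and 3.57% between these. CMM12 has no second control, so no CMM12 KO difference can be given without its only control. Among melanocytic markers DCT was at 0 in every library, SOX10, MLANA, TYR and S100B stayed under 1 CPM, and PMEL lay at 0.437 to 2.64 CPM. TYRP1, a pigment enzyme, had 4.29, 6.07 and 3.71 CPM in CMM12 KO 1, KO 2 and control and was at 0 in CMM2, and MITF lay at 15.4 to 28.4 CPM over the libraries. Of the leukocyte markers, PTPRC, CD3E and MS4A1 were at 0 in every library, and AIF1 and ITGAM stayed under 1 CPM. CD68 lay at 0.851 to 2.77 CPM and CSF1R at 0.0955 to 4.89 CPM over the libraries. The 4 endothelial markers summed to 5.65 to 10.7 CPM over CMM12 libraries and 8.61 to 15.4 CPM over CMM2 libraries. Among them VWF lay at 1.90 to 15.4 CPM, KDR reached 8.02 CPM in the CMM12 control, and CDH5 stayed under 1 CPM.

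IL33 is an IL-1 family cytokine that is stored in the nucleus and released from damaged cells as an alarm signal. It had 117 CPM (1288 counts) in CMM12 KO 1 and 0.0978 CPM (1 count) in CMM12 KO 2, against 4.49 CPM (52 counts) in the CMM12 control. All CMM2 libraries had 0 counts. The CMM12 KO libraries thus lay on opposite sides of their control, and 1 library held nearly all IL33 reads of the series. CMM12 KO 1 was 26.2-fold above the control (95% counting interval 19.8 to 35.2), and CMM12 KO 2 was 45.9-fold below it (interval 7.87 to 1845, from a single count). CMM12 KO 2 stood below CMM12 KO 1 by a ratio of 1200 (interval 215 to 4.744e+04). Between the lines, KO 1 was at least 448-fold higher in CMM12 than in CMM2, and the control at least 15.7-fold higher. The fitted log2 change of KO against control in CMM12 was 3.71 ± 2.68 (SE, KO n = 2, control n = 1), an average over libraries on opposite sides of the control, and without KO 1 it was -5.36. In bulk RNA, more cells with IL33 transcript and more transcript per cell cannot be told apart, here and for every gene below. In TPM, where counts are corrected for transcript length and scaled within a library, IL33 stood at 50.9 TPM in CMM12 KO 1, above 74.9% of the genes tested, at 0.05 TPM in CMM12 KO 2 and at 2.11 TPM in the CMM12 control.

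The IL33 receptor showed another pattern among the same cells. IL1RL1, which encodes the ligand-binding chain ST2, had 0.638 and 12.2 CPM in CMM12 KO 1 and KO 2, against 0.863 CPM in the CMM12 control. In CMM2 it was near or at 0, with 0.473 CPM in KO 2. The library with the most IL1RL1 was thus CMM12 KO 2, in which IL33 was at 1 count. IL1RAP, the co-receptor chain shared with the IL-1 receptor, was at 1.00 and 2.25 CPM in CMM12 KO 1 and KO 2 and at 0.863 CPM in the control, and at 5.15, 6.90 and 5.92 CPM in CMM2 KO 1, KO 2 and control. It was lower in CMM12 than in CMM2 (log2 -2.16, SE 0.475, edgeR quasi-likelihood adjusted p 0.0163), with no overlap between the lines.

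**Figure D1:**
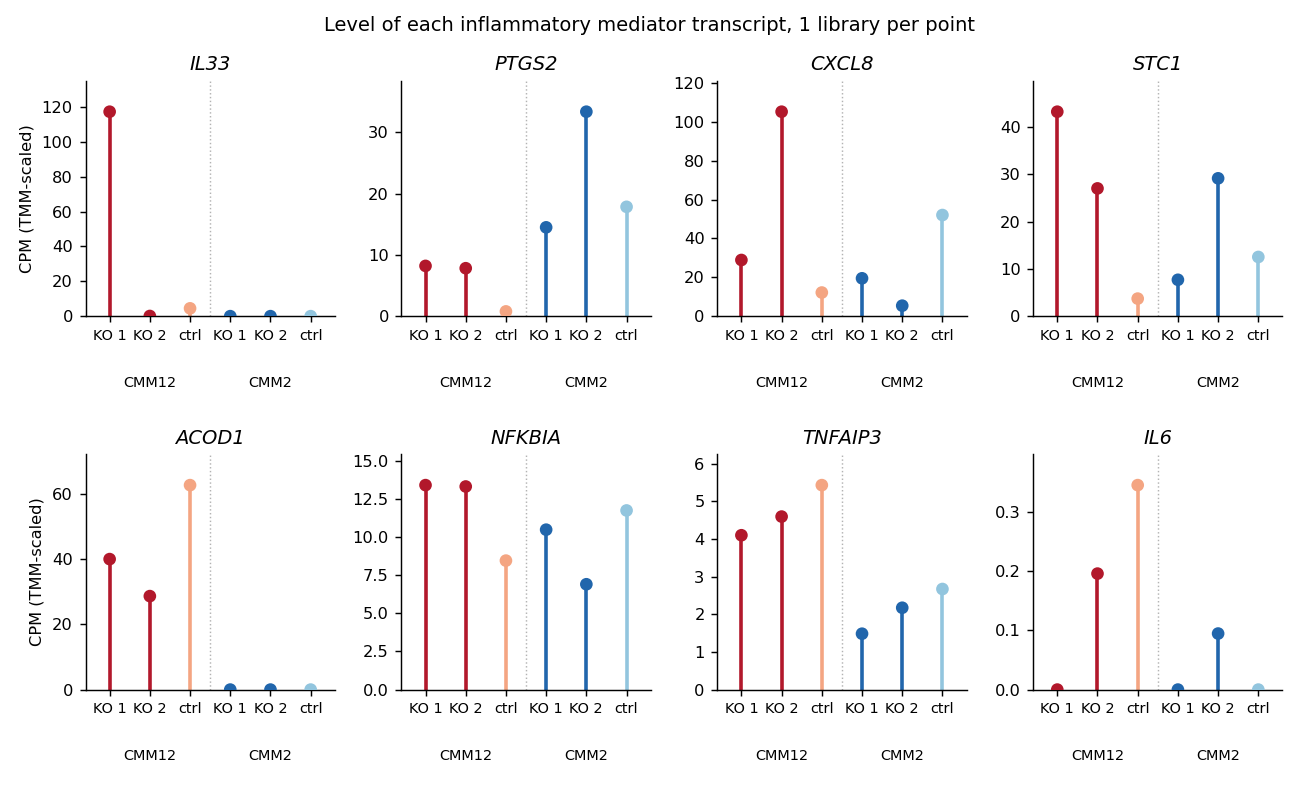
Levels of the 7 members that passed the low-count filter and of IL6 in each library, as TMM-scaled CPM, with CMM12 left of CMM2 and KO libraries left of the control of each line. IL33 reaches 117 CPM in CMM12 KO 1 alone, ACOD1 is seen in CMM12 only, and PTGS2 is lowest in the CMM12 control at 0.776 CPM.

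PTGS2, or cyclooxygenase 2, makes the precursor of the prostaglandins and is the inducible form of the enzyme. CMM12 KO 1 and KO 2 held 8.21 and 7.83 CPM (90 and 80 counts), against 0.776 CPM (9 counts) in the CMM12 control. The CMM12 KO libraries differed from each other by less than their counting error, with a ratio of KO 2 to KO 1 of 0.954 (interval 0.697 to 1.304), and both lay above the control. Their folds over the control were 10.6 (interval 5.33 to 23.9) and 10.1 (interval 5.05 to 22.9), both resting on the 9 counts of 1 control library. CMM2 had 14.5 and 33.4 CPM in KO 1 and KO 2, against 17.9 CPM in the CMM2 control, so the control lay between the KO libraries. There the fold was 0.812 in KO 1 (interval 0.655 to 1.01) and 1.87 in KO 2 (interval 1.56 to 2.25). The fitted log2 change was 3.35 ± 0.70 in CMM12 and 0.42 ± 0.53 in CMM2 (SE), the second -0.30 without CMM2 KO 2. Each CMM12 library lay below each CMM2 library, and the CMM12 control was 23.0-fold below the CMM2 control (interval 11.9 to 51.1). CSF1R, a macrophage marker, had 3.37 and 4.89 CPM in CMM12 KO 1 and KO 2, against 0.776 CPM in the CMM12 control, and the sum of the 7 leukocyte markers with a row was 1.73 to 5.97 CPM over CMM12 libraries and 1.61 to 2.86 CPM over CMM2 libraries. PTPRC, which all leukocytes carry, was at 0 in each of these libraries.

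Of the 6 tested genes on a list of prostanoid and leukotriene genes, edgeR called 3 between the lines, where it called 25.9% of all genes. For KO in either line it called 0 of them. PLA2G4A, the phospholipase that frees arachidonic acid for PTGS2, had 24.0, 32.5 and 26.8 CPM in CMM12 KO 1, KO 2 and control, and 105, 183 and 84.5 CPM in CMM2 KO 1, KO 2 and control. It was lower in CMM12 (log2 -2.12, SE 0.28, edgeR adjusted p 0.00286). HPGD, which inactivates prostaglandin E2, had 20.1 and 8.90 CPM in CMM12 KO 1 and KO 2, against 41.1 CPM in the CMM12 control. In CMM2, HPGD had 1.57 and 1.32 CPM in KO 1 and KO 2, against 2.96 CPM in the control. All KO libraries were thus below their control for HPGD, by log2 -1.50 ± 0.50 in CMM12 and -1.02 ± 0.59 in CMM2 (SE), with edgeR adjusted p-values of 0.784 and 1. HPGD was higher in CMM12 than in CMM2 (log2 3.49, SE 0.38, edgeR adjusted p 0.00174). PTGIS, the prostacyclin synthase, had the highest mean CPM of the tested genes of this list over the 6 libraries. It was at 229, 197 and 271 CPM in CMM12 KO 1, KO 2 and control and at 191, 226 and 159 CPM in CMM2 KO 1, KO 2 and control. PTGES, the inducible prostaglandin E synthase, had at most 1 count in a library. LTA4H, a leukotriene enzyme, was lower in CMM12 (log2 -0.93, edgeR adjusted p 0.00969). It lay above PTGIS in CMM2 KO 1 and in the CMM2 control, at 261 and 260 CPM.

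Prostaglandin E2 receptors were also unequal between libraries. PTGER4, which raises cyclic AMP, had 4.47 and 5.87 CPM in CMM12 KO 1 and KO 2, against 26.1 CPM in the CMM12 control (log2 -2.34, SE 0.65, edgeR adjusted p 0.702). In CMM2 it had 7.08 and 23.1 CPM in KO 1 and KO 2, against 9.26 CPM in the control. PTGER4 and PTGS2 thus lay on opposite sides of the CMM12 control in both CMM12 KO libraries, while CMM2 KO 2 held the most of both in CMM2. PTGER2 had 4.56, 23.8 and 11.0 CPM in CMM12 KO 1, KO 2 and control, and in CMM2 it was seen in KO 2 alone, at 2.36 CPM; it was higher in CMM12 by edgeR (adjusted p 0.0451) but not called by DESeq2 (adjusted p 0.112). PTGER1 stayed at or under 0.189 CPM, and no row carries the symbol PTGER3.

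**Figure D2:**
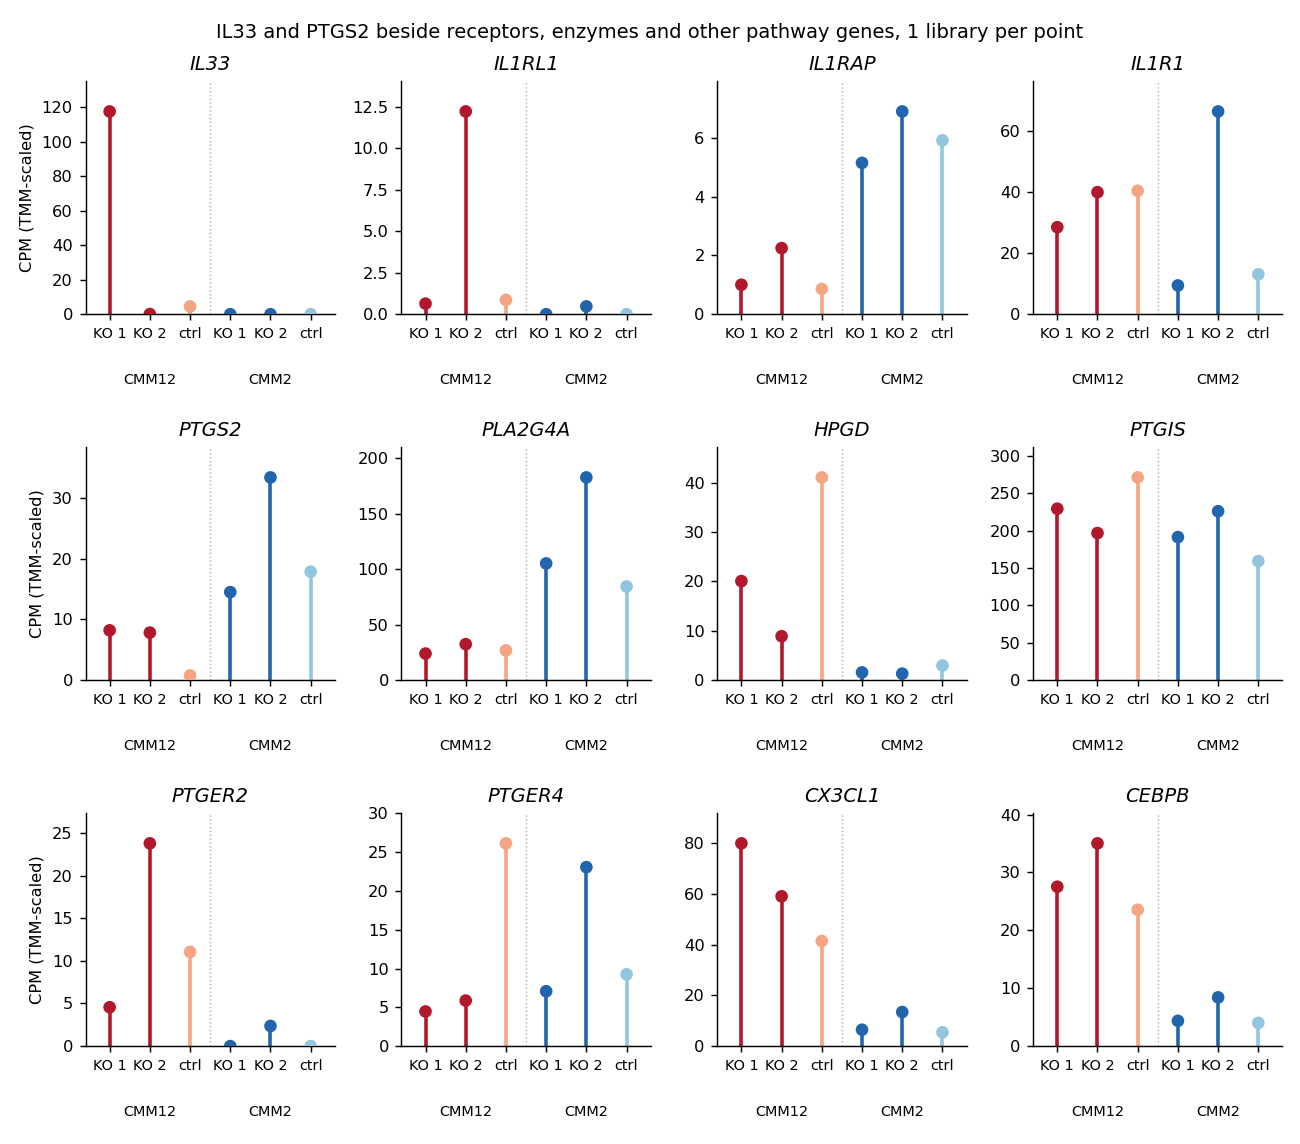
Level in CPM in each library of IL33 and PTGS2 beside their receptors, prostaglandin enzymes, CX3CL1 and CEBPB, with CMM12 left of CMM2 and KO libraries left of controls. IL1RL1 is highest in CMM12 KO 2 at 12.2 CPM, where IL33 is at 1 count, and HPGD is lower in the KO libraries than in the control of each line.

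CXCL8, or interleukin 8, is a chemokine that draws neutrophils and promotes vessel growth. It had 28.9 and 105 CPM (317 and 1075 counts) in CMM12 KO 1 and KO 2, against 12.2 CPM (141 counts) in the CMM12 control. In CMM2 it had 19.5 and 5.39 CPM (223 and 57 counts) in KO 1 and KO 2, against 52.0 CPM (545 counts) in the CMM2 control. Both CMM12 KO libraries lay above their control and both CMM2 KO libraries below theirs, and in each line KO 2 lay farther from the control than KO 1. The folds over the control were 2.38 (interval 1.94 to 2.92) in CMM12 KO 1 and 8.65 (interval 7.25 to 10.4) in CMM12 KO 2. CMM2 KO 1 lay 2.67-fold below its control (interval 2.28 to 3.14) and CMM2 KO 2 lay 9.65-fold below it (interval 7.34 to 12.9). These intervals cover counting error only and none includes 1. The fitted log2 changes of KO against control were 2.46 ± 1.01 in CMM12 and -2.06 ± 0.86 in CMM2 (SE), and their difference was 4.52 ± 1.34. KO 2 exceeded KO 1 by 3.64-fold in CMM12 (interval 3.21 to 4.14) and lay 3.61-fold below it in CMM2 (interval 2.69 to 4.92). The order of the lines turned with the genotype, since KO 2 was 19.5-fold higher in CMM12 than in CMM2 (interval 14.9 to 25.9), whereas the control was 4.28-fold lower in CMM12. CXCR2, a receptor of CXCL8, was at 0 in all libraries, and no row carries the symbol CXCR1.

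STC1, stanniocalcin 1, is a secreted glycoprotein hormone first known for calcium and phosphate balance, and unlike the ligands above it is not a cytokine. STC1 had 43.2 and 27.0 CPM (474 and 276 counts) in CMM12 KO 1 and KO 2, against 3.71 CPM (43 counts) in the CMM12 control. In CMM2 it had 7.69 and 29.1 CPM (88 and 308 counts) in KO 1 and KO 2, against 12.5 CPM (131 counts) in the control. Both CMM12 KO libraries were above their control, whereas the CMM2 KO libraries lay on either side of theirs. The CMM12 folds were 11.7 in KO 1 (interval 8.52 to 16.3) and 7.28 in KO 2 (interval 5.27 to 10.3). In CMM2, KO 1 was 1.63-fold below the control (interval 1.23 to 2.16) and KO 2 was 2.33-fold above it (interval 1.89 to 2.88). The fitted log2 change was 3.24 ± 0.88 in CMM12 and 0.56 ± 0.75 in CMM2 (SE), the second -0.71 without CMM2 KO 2. STC1 and PTGS2 had the same order over the CMM2 libraries, with KO 2 highest, the control next and KO 1 lowest, and CMM2 KO 2 exceeded KO 1 by 3.79-fold for STC1 (interval 2.98 to 4.86) and by 2.30-fold for PTGS2 (interval 1.91 to 2.79). STC2, its paralog, had at most 3 counts in a library.

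ACOD1 makes itaconate from an intermediate of the citrate cycle and is best known from activated macrophages. ACOD1 had 40.0 and 28.7 CPM (439 and 293 counts) in CMM12 KO 1 and KO 2, against 62.7 CPM (727 counts) in the CMM12 control, and 0 counts in all CMM2 libraries. Both KO libraries lay below the CMM12 control, 1.57-fold in KO 1 (interval 1.39 to 1.77) and 2.19-fold in KO 2 (interval 1.91 to 2.51), with a fitted log2 change of -0.87 ± 0.35 (SE). Against CMM2, ACOD1 was at least 153-fold higher in CMM12 KO 1, at least 101-fold in KO 2 and at least 219-fold in the control. The macrophage marker CSF1R moved the other way in CMM12, being lowest in the control, where ACOD1 was highest. CD68, another macrophage marker, had 1.19 and 1.08 CPM in CMM12 KO 1 and KO 2, against 0.949 CPM in the control. Both markers were low, and which cells held ACOD1 was not tested. In TPM, ACOD1 in the CMM12 control stood above 77.0% of the genes tested. Of the 9 tested genes listed as partners of ACOD1, edgeR called 4 between the lines, where it called 25.9% of all genes. Of these, 1 was higher in CMM12 and 3 were lower. SDHA, a subunit of succinate dehydrogenase, the enzyme that itaconate inhibits, was higher (log2 1.18, edgeR adjusted p 0.00342). The lower ones included IDH2 (log2 -1.21, edgeR adjusted p 0.00279) and ACO1 (log2 -0.79, edgeR adjusted p 0.015). NQO1, a target of the oxidant-sensing factor NRF2, had 342, 1001 and 465 CPM in CMM12 KO 1, KO 2 and control and 262, 327 and 250 CPM in CMM2 KO 1, KO 2 and control.

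NFKBIA and TNFAIP3 are the feedback inhibitors of NF-kappaB among the members. NFKBIA, the inhibitor that holds NF-kappaB in the cytoplasm, had 13.4 and 13.3 CPM in CMM12 KO 1 and KO 2, against 8.45 CPM in the CMM12 control. In CMM2, NFKBIA had 10.5 and 6.90 CPM in KO 1 and KO 2, against 11.7 CPM in the control. Like CXCL8, it lay above the control in both CMM12 KO libraries and below it in both CMM2 KO libraries, with CMM2 KO 1 within counting error of its control (fold 0.893, interval 0.688 to 1.16). Its fitted log2 changes were 0.66 ± 0.43 in CMM12 and -0.43 ± 0.41 in CMM2 (SE), with a difference of 1.09 ± 0.59. TNFAIP3, or A20, an enzyme that edits ubiquitin chains to end the signal, had 4.10 and 4.60 CPM in CMM12 KO 1 and KO 2, against 5.43 CPM in the CMM12 control. In CMM2, TNFAIP3 had 1.49 and 2.18 CPM in KO 1 and KO 2, against 2.67 CPM in the control. All KO libraries lay below their control, but the counting interval of each of these folds included 1, as for CMM12 KO 1 (0.755, interval 0.503 to 1.12) and CMM2 KO 2 (0.814, interval 0.448 to 1.47). Every CMM12 library was above every CMM2 library for TNFAIP3, by log2 1.17 ± 0.38 (SE) in the fit.

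IL6, the cytokine of the acute phase response, had 0, 2 and 4 counts in CMM12 KO 1, KO 2 and control and 0, 1 and 0 counts in CMM2 KO 1, KO 2 and control, too few for a fold at this depth. Its signalling chain IL6ST was abundant, at 227, 183 and 216 CPM in CMM12 KO 1, KO 2 and control and at 226, 182 and 245 CPM in CMM2 KO 1, KO 2 and control, while IL6R stayed at or under 0.978 CPM. CCR2, the receptor of CCL2, was at 0 in all libraries. The IL-1 receptor chain IL1R1 had 28.5 and 40.0 CPM in CMM12 KO 1 and KO 2, against 40.5 CPM in the CMM12 control, and 9.43 and 66.5 CPM in CMM2 KO 1 and KO 2, against 13.1 CPM in the CMM2 control. CMM2 KO 2 thus held the highest IL1R1 level of the 6 libraries together with the highest PTGS2 level and the lowest CXCL8 level. TNFRSF1A, the main receptor of TNF, ranged from 55.6 to 97.4 CPM over the libraries. TNFRSF1B, another TNF receptor, had 1.19 and 0.881 CPM in CMM12 KO 1 and KO 2, against 0.173 CPM in the CMM12 control. In CMM2 it was at 0 apart from 0.0874 CPM in KO 1. TNFRSF1B was higher in CMM12 by edgeR (adjusted p 0.0453) but not called by DESeq2 (adjusted p 0.0752).

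**Figure D3:**
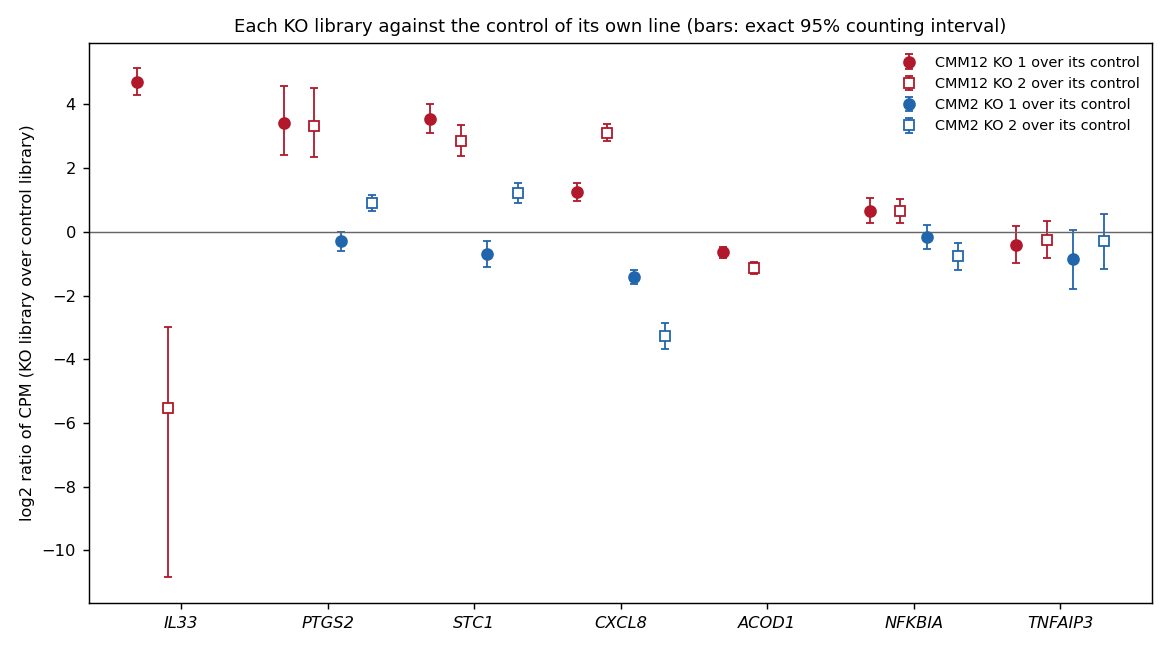
Log2 fold of each KO library over the control of its line for each member, with 95% exact counting intervals as bars and CMM12 left of CMM2. The CMM12 folds of PTGS2 and STC1 lie together on the higher side, those of IL33 lie far apart, and those of CXCL8 are positive in CMM12 and negative in CMM2.

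Ordered by mean TPM over the 6 libraries, STC1 came first at 31.3 TPM, then CXCL8 at 23.0, ACOD1 at 21.4, NFKBIA at 13.9, IL33 at 8.85, PTGS2 at 4.50 and TNFAIP3 at 1.78, with IL6 at 0.070 TPM. Neighbours in this order are not separated beyond their spread, since STC1 alone ran between 6.06 and 65.1 TPM and CXCL8 between 3.15 and 68.8 TPM. NFKBIA was the steadiest of the abundant members, between 8.66 and 18.6 TPM. Within libraries the leading member changed, being STC1 at 65.1 TPM in CMM12 KO 1, CXCL8 at 68.8 TPM in CMM12 KO 2, ACOD1 at 62.6 TPM in the CMM12 control, NFKBIA at 12.9 TPM in CMM2 KO 1, STC1 at 43.0 TPM in CMM2 KO 2 and CXCL8 at 29.6 TPM in the CMM2 control.

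Counted over single libraries, among genes at a mean of at least 10 CPM over the pair compared, 3 of 5 members differed at least 2-fold between CMM12 KO 1 and the control (IL33, CXCL8 and STC1, all higher), where 5.12% of all such genes did. In CMM12 KO 2, 3 of 4 did (CXCL8 and STC1 higher, ACOD1 lower), against a background of 5.19%. CXCL8 alone of 4 did so in CMM2 KO 1, where the background was 0.611%, and STC1 (higher) and CXCL8 (lower) of 3 in CMM2 KO 2, where it was 6.06%. Since the members were picked from such differences, nothing is read from these shares. Between the KO libraries, 2 of 5 members differed at least 2-fold in CMM12 KO 2 against KO 1 (background 3.57%), with CXCL8 higher and IL33 lower, and 3 of 3 in CMM2 KO 2 against KO 1 (background 4.45%), with PTGS2 and STC1 higher and CXCL8 lower. CXCL8 was thus the one member past this fold in every one of the 6 pairs. With the minimum lowered to 1 CPM, which takes in PTGS2 and TNFAIP3 in CMM12, the counts against the control were 4 of 7 in CMM12 KO 1 (background 10.3%), 5 of 7 in CMM12 KO 2 (11.5%), 1 of 5 in CMM2 KO 1 (2.82%) and 2 of 5 in CMM2 KO 2 (10.3%). For KO 2 against KO 1 they were 2 of 7 in CMM12 (8.98%) and 3 of 5 in CMM2 (8.77%).

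By side of the control, 6 of 7 members had both CMM12 KO libraries on 1 side, 4 of them higher (PTGS2, CXCL8, STC1 and NFKBIA) and 2 lower (ACOD1 and TNFAIP3), where 69.8% of all genes tested did. In CMM2, 3 of 7 did, all lower (CXCL8, NFKBIA and TNFAIP3), where 60.9% of all genes did. TNFAIP3 was therefore the one member on the same side in all 4 KO libraries. The lines did not overlap for 4 of 7 members, with IL33, ACOD1 and TNFAIP3 higher in CMM12 and PTGS2 lower, where 46.1% of all genes did not overlap, and for IL33 that separation in CMM12 KO 2 rests on 1 count.

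Across all genes, edgeR with Benjamini-Hochberg adjustment at 0.05 called 0 of 7 members for KO in CMM12, where it called 1 of 12270 genes (0.00815%), with 734 genes at an unadjusted p under 0.05. DESeq2 called PTGS2 and STC1 there, among 45 of 11080 genes (0.406%). edgeR called 0 members and 0 genes (0%) for KO in CMM2 (233 genes at an unadjusted p under 0.05, 6 called by DESeq2), across lines (495 and 9), for KO 2 against KO 1 (637 and 33) and for the difference of the KO effects (471 and 22). The fitted changes of KO 2 against KO 1 were small beside their errors for CXCL8 (log2 0.12 ± 0.87 SE), for which the lines went opposite ways, and 0.59 ± 0.40 for PTGS2. Between CMM12 and CMM2, edgeR called 2 of 7 members, ACOD1 (higher in CMM12) and PTGS2 (lower, log2 -2.33 ± 0.61), and 25.9% of all genes, while DESeq2 called IL33 as well. The PTGS2 call was kept without CMM2 KO 1 and lost with any other library left out, its difference being log2 -1.57 without the CMM12 control.

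The other genes of these pathways were counted on lists written by function, with earlier results of these data known, and edgeR called 0 of their tested genes in any KO comparison, in KO 2 against KO 1 or in the difference between lines. The tested genes of the NF-kappaB pathway had a median log2 change of 0.02 in CMM12 KO and -0.03 in CMM2 KO (27 genes), beside medians of 0.02 and 0.00 over all genes. The inducible transcription factors had 0.55 in CMM12 KO, with 9 of 11 genes above 0, and -0.03 in CMM2 KO, with 5 of 11 above 0. JUN, a subunit of AP-1, had 469 and 503 CPM in CMM12 KO 1 and KO 2, against 357 CPM in the CMM12 control, and 263 and 150 CPM in CMM2 KO 1 and KO 2, against 287 CPM in the CMM2 control. FOSL1, its partner, had 138 and 106 CPM in CMM12 KO 1 and KO 2, against 80.7 CPM in the control, and 215 and 139 CPM in CMM2 KO 1 and KO 2, against 229 CPM in the control. FOSL2, another partner of JUN, had 132 and 65.7 CPM in CMM12 KO 1 and KO 2, against 177 CPM in the control, and 97.0 and 112 CPM in CMM2 KO 1 and KO 2, against 84.2 CPM in the control. JUND had 85.5 and 120 CPM in CMM12 KO 1 and KO 2, against 87.6 CPM in the control, and 63.5 and 52.9 CPM in CMM2 KO 1 and KO 2, against 47.5 CPM in the control. These AP-1 genes thus did not share a direction. JUN and FOSL1 lay on the same sides of their controls as CXCL8 in all 4 KO libraries. FOSL2 lay on the opposite sides, and JUND on either side in CMM12, none passing the test. Further AP-1 genes of the list, FOS, JUNB and ATF3, were named after their values were seen. They had fitted log2 changes of 2.85, 0.85 and 0.85 in CMM12 KO. In CMM2 KO their changes were 0.13, 0.30 and -0.44. FOSL2 was the only AP-1 gene named here with a fitted change below 0 in CMM12 KO. Since edgeR called 0 of these genes for KO, no shared direction is read from this. RELA, the main activating subunit of NF-kappaB, had 127 and 121 CPM in CMM12 KO 1 and KO 2, against 92.3 CPM in the control, and 131 and 108 CPM in CMM2 KO 1 and KO 2, against 120 CPM in the control. The median log2 changes in CMM12 KO and CMM2 KO were 0.24 and 0.09 for cytokine mRNA decay and feedback genes (12 tested), 0.05 and -0.03 for itaconate and NRF2 genes (9), -0.18 and 0.12 for prostanoid and leukotriene enzymes (6), 0.24 and 0.00 for other cytokines (10), and 0.03 and 0.70 for receptors (9), the last 0.03 in CMM2 with the 3 receptors that had a group at 0 set at their floor.

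**Figure D4:**
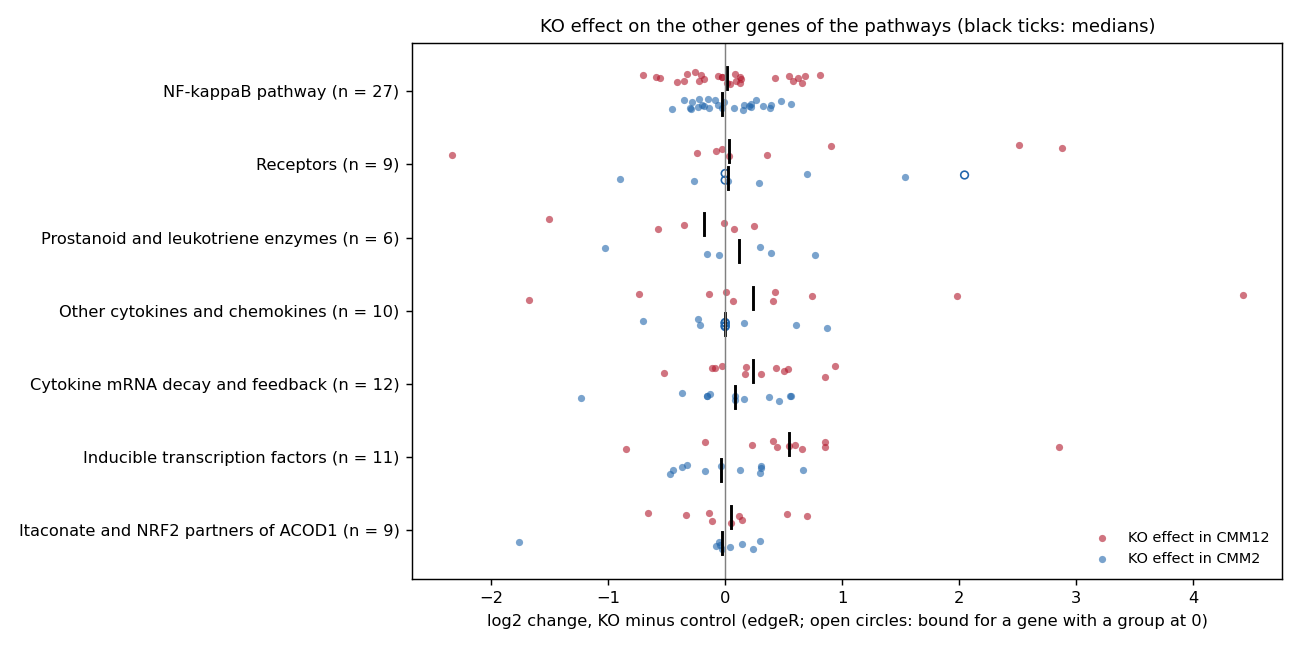
Fitted log2 change of KO against control for each tested gene of 7 gene lists, with CMM12 above CMM2 in each row, black ticks at the medians and open circles for genes with a group at 0, drawn at their bound. The NF-kappaB genes centre near 0 in both lines, and the inducible transcription factors have medians of 0.55 in CMM12 and -0.03 in CMM2.

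Between the lines, where edgeR called 25.9% of all genes, the same lists held called genes. Of 10 tested cytokines, 9 had a fitted difference above 0 and 1 below 0, and edgeR called 7 higher in CMM12 and 0 lower. The median log2 difference was 2.57, or 2.02 with groups at 0 set at their floor. For 3 of the 10 a line was at 0, among them CCL7 and CXCL14 in CMM2. Those 2 passed the low-count filter through CMM12 libraries alone, which fixed their direction, so nothing is read from this count or median. CX3CL1, a membrane-bound chemokine, had 79.9, 59.0 and 41.4 CPM in CMM12 KO 1, KO 2 and control and 6.46, 13.4 and 5.44 CPM in CMM2 KO 1, KO 2 and control (log2 2.84, SE 0.31, edgeR adjusted p 0.0017). CSF1 and IL34, both ligands of CSF1R, were higher in CMM12 by log2 2.30 (edgeR adjusted p 0.00334) and 0.71 (edgeR adjusted p 0.0346). CSF1, IL34 and ACOD1 were thus all higher in CMM12, and a link between them was not tested. Of 11 transcription factors, 9 had a fitted difference above 0 and 2 below 0, and edgeR called 5 higher in CMM12 and 0 lower. Among those called were CEBPB, a partner of NF-kappaB at cytokine genes (log2 2.38, SE 0.30, edgeR adjusted p 0.00244), IRF1 (log2 1.63, edgeR adjusted p 0.00616) and JUN (log2 0.93, edgeR adjusted p 0.0445). Of the 27 NF-kappaB genes, 6 were called, which is no larger a share than over all genes: 3 were higher, including CYLD, a deubiquitinase that damps the pathway (log2 1.36, edgeR adjusted p 0.00448), and NFKBIZ (log2 0.75, edgeR adjusted p 0.00979). The 3 that were lower in CMM12 included the kinases CHUK (log2 -0.83, edgeR adjusted p 0.00966) and IKBKB (log2 -0.85, edgeR adjusted p 0.0275), which mark NFKBIA for destruction. ZFP36L1, an RNA-binding protein that speeds the decay of cytokine mRNAs, was higher in CMM12 (log2 0.69, edgeR adjusted p 0.0203).

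The genes whose levels followed those of IL33 and PTGS2 most closely were taken by the highest Pearson r of log2(CPM + 1) over the 6 libraries among 10133 genes. For IL33 these were IRX6 (r = 0.99), ACTR3 (0.99), TMEM63B (0.99) and MALSU1 (0.98), and 27 genes had an r over 0.95. IRX6, the closest, had 7.84 CPM in CMM12 KO 1, 0 in CMM12 KO 2 and 1.73 CPM in the CMM12 control, and was at 0 in CMM2. For PTGS2 they were EEF1AKMT1 (0.99), MEF2A (0.98), TBX20 (0.98) and XAB2 (0.98), with 31 genes over 0.95. MEF2A had 31.8 and 31.3 CPM in CMM12 KO 1 and KO 2, against 20.2 CPM in the control, and 44.3 and 53.0 CPM in CMM2 KO 1 and KO 2, against 42.7 CPM in the control. These points are 6 libraries of 2 lines, and the IL33 ranking turns on CMM12 KO 1. The 4 genes named for PTGS2 were all lowest in the CMM12 control, where PTGS2 had 9 counts. A high r does not mean changes of equal size, since ACTR3 ran from 849 to 1347 CPM and IL33 from 0 to 117 CPM.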

How the data were processed

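RNA from CMM12 and CMM2 cells gave 6 libraries, made per the labels' protocols from 1 ug of RNeasy-purified total RNA with NEBNext Ultra chemistry. Per the submitters' processing notes, the tools were STAR 2.7.3a and RSEM 1.3.3, on CanFam3.1. How strand was treated in the counting is not stated, so a gene cannot be separated from an antisense partner. The authors deposited unscaled expected counts for each gene and, beside them, TPM values, which are corrected for length, per the file headers. Rounding the expected counts altered 3.22% to 3.63% of the values, by library. Groups came from titles and genotypes, and 0 columns belonged to other samples.

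The members and gene lists were chosen with earlier results of these data known. The main test was the edgeR 4.0.16 quasi-likelihood test (default spread estimate, R 4.3.3) with TMM scaling, the filterByExpr filter applied to 4 groups, and adjustment by Benjamini-Hochberg at 0.05 over 12270 genes (12251 for the KO numbers). KO effects in each line and their difference came from group means (2 residual degrees of freedom, each lone control assumed to vary like the KO pairs), the effect across lines and the contrast of lines from additive terms (3), and KO 2 against KO 1 from line and number (1). Standard errors are the log2 change over the root of F. Single-library folds are ratios of TMM-scaled CPM with exact 95% intervals, which cover counting error only, as does the floor of 3 counts per library. The 2-fold count used genes at a mean of 10 CPM, and a minimum of 1 CPM was added after seeing the data. Of each list, the text names from the 3 genes highest in mean CPM and up to 4 called genes, and every receptor; for IL33 and PTGS2 it names the 4 genes most alike. The other genes of the report are members, PDPN or markers, except PTGES and STC2, named for their roles. FOS, JUNB and ATF3 were added after their values were seen, as were the chemokines and interleukins of the closing section. 1 listed gene is not reported here. The scripts were tested on simulated data.

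Alternatives were the Wald test of DESeq2 1.42.0 (its adjusted p-values stayed NA for 1190 genes in CMM12 and 19 for the KO numbers), scaling by median of ratios, dropping the low-count filter, at least 1 CPM in 2 libraries, the bias-adjusted quasi-likelihood fit, limma 3.58.1 with a trend on log2(TPM + 1) and log2(TPM + 0.1), where folds of low genes are understated, over genes reaching 1 TPM in a library, KO number as a block, and leaving out each library in turn. Promoter and protein sequences were not used here.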

Additional observations from a re-analysis of the deposited data

Results flagged for a closer look

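Both KO libraries lay on 1 side of their control for 69.8% of all genes tested in CMM12 and 60.9% in CMM2. The share of all genes with opposite sides between the lines was not counted, so nothing is read from how many are listed here. For some genes both KO libraries of one line lay on the opposite side of their control from both KO libraries of the other. Of the members these were CXCL8, with a difference of the KO effects (CMM12 minus CMM2) of log2 4.52 ± 1.34 (SE), and NFKBIA, with 1.09 ± 0.59; no p-value is given for members, whose difference was among the values they were chosen on. Besides the members, the search covered only the genes named from the lists and markers by level or call, not every listed gene. Among these named genes the difference was 0.77 ± 0.35 for CYLD, a brake on NF-kappaB signalling, and -0.74 ± 0.36 for PTGIS, the prostacyclin synthase. For the AP-1 genes it was 0.92 ± 0.51 for JUN, 0.96 ± 0.48 for FOSL1 and -1.15 ± 0.58 for FOSL2. The melanocytic factor MITF had -0.97 ± 0.47 and the macrophage marker CD68 1.33 ± 1.26. The edgeR adjusted p of the difference over all genes was 1 for each of these 7 genes. IL11, a listed cytokine outside this search, also had its KO libraries on opposite sides between the lines, with levels given in the closing section.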

How the results depend on the processing

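Of 379 fitted member changes under alternatives 30 moved by more than their error and 0 of the called ones turned, and 111 of 111 single-library folds kept within counting error under TPM, library totals or median-of-ratios factors. For KO in CMM12, where 0 members were called, DESeq2 called 2 (PTGS2 and STC1), and leaving out a KO library gave 0 to 1 (IL33, without KO 2). For CMM12 against CMM2, 2 members were called, and 1 to 2 with a library left out: ACOD1 alone without CMM12 KO 1, the CMM12 control, CMM2 KO 2 or the CMM2 control, ACOD1 and IL33 without CMM12 KO 2. The count was 3 with DESeq2 or no low-count filter (IL33 added) and with the bias-adjusted fit (TNFAIP3 added). The PTGS2 difference between lines was log2 -2.33, and -1.57 or -1.58 once the control of CMM12 or of CMM2 was dropped. For KO 2 against KO 1, 0 were called and 1 (IL33) with no low-count filter. Values not called changed sign for PTGS2 and STC1 under KO in CMM2 without CMM2 KO 2 (log2 -0.30 and -0.71) and for STC1 between lines without CMM2 KO 1 (-0.57, against 0.15), among others. The IL33 change in CMM12 was log2 3.71, 0.32 in limma on log2(TPM + 0.1) and -5.36 without CMM12 KO 1; the cause was not tested beyond the opposite sides of its KO libraries. In the contrast of lines, CXCL8 was log2 1.14, -0.03 without CMM12 KO 2 and 2.43 with either control left out. Over all genes the counts called were 0 for KO in CMM2, 1 in CMM12, 0 across lines, 3172 between lines, 0 for the KO numbers and 0 for the difference. DESeq2 called 6, 45, 9, 3951, 33 and 22, and with no low-count filter edgeR called 2, 28, 15, 3516, 12 and 2. In CMM12 the bias-adjusted fit called 4 genes, and a filter of 1 CPM in 2 libraries or limma on either scale 0; across lines limma called 3 on log2(TPM + 1) and 2 on log2(TPM + 0.1). With 1 library left out the counts were 0 to 1 in CMM2, 0 to 14 in CMM12, 0 to 1 across lines, 1501 to 3102 between lines and 0 to 1 for the difference.

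Same-numbered KO libraries deviated together by a correlation of 0.0552 across 12270 genes, over 2 pairs only, which does not settle whether the numbers pair the libraries, and the labels do not say. With KO number as a replicate block, edgeR called 0 members for KO in CMM2, 0 in CMM12, 0 across lines, 3 between lines (ACOD1, IL33 and PTGS2) and 0 for the difference, and over all genes 0, 8, 1, 2960 and 0. The IL33 change in CMM12 was log2 -0.25 under the block. No such fit exists for KO 2 against KO 1, where the number is the factor tested, and leaving out a library leaves it no residual degrees of freedom. IL6 and the CMM12 KO 2 level of IL33 are limited by depth.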

Other observations

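A search of every row whose symbol is that of a chemokine or interleukin ligand, added after the data had been seen, placed the members among their families. Of 27 chemokine rows 10 were at 0 in every library and 6 reached 1 CPM in a library, namely CCL24, CCL7, CX3CL1, CXCL14, CXCL16 and CXCL8. Of 35 interleukin rows 20 were at 0 in every library and 6 reached 1 CPM, namely IL11, IL12A, IL33, IL34, IL37 and IL5. CCL24, an eosinophil-attracting chemokine, had 4.10 and 12.8 CPM (45 and 131 counts) in CMM12 KO 1 and KO 2, against 0.0863 CPM (1 count) in the CMM12 control. Its ratio to the control was 47.6 in KO 1 (counting interval 8.11 to 1920) and 149 in KO 2 (interval 26.2 to 5913). In CMM2, CCL24 was at 0 apart from 0.189 CPM in KO 2. CCL7, a monocyte-attracting chemokine close to CCL2, had 0.456 and 7.44 CPM in CMM12 KO 1 and KO 2, against 0.173 CPM in the CMM12 control, so that CMM12 KO 2 stood 16.3-fold above KO 1 (interval 6.69 to 51.7). CXCL14 went the other way in CMM12, at 0.729 and 6.95 CPM in KO 1 and KO 2, against 12.3 CPM in the control, and was at 0 in CMM2. KO 1 was 16.8-fold below the control for CXCL14 (interval 8.30 to 39.7). IL11, a cytokine that signals through IL6ST, had 7.29 and 9.0 CPM in CMM12 KO 1 and KO 2, against 6.12 CPM in the CMM12 control, and 1.57 and 2.18 CPM in CMM2 KO 1 and KO 2, against 3.06 CPM in the CMM2 control. These genes were named after their values were seen, and no test is given for them.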
